A study of Mus musculus with 7 samples.

Results

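Heat shock chaperones fold proteins and keep them from aggregating. In the cytosol HSP70 proteins bind unfolded stretches, J-domain proteins deliver these clients and stimulate ATP hydrolysis, exchange factors release the ADP, and HSP90 takes over late steps in the folding of kinases, receptors and transcription factors. In the mitochondrial matrix the chaperonin HSP60 and its lid HSP10 fold imported proteins, and HSF1 is the transcription factor that raises many of these genes under heat or protein damage. In leukocytes HSP90 also serves kinases of inflammatory signalling as clients.

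The 9 genes considered were Hspa8, Hsph1, Dnajb1, Dnaja1, Hsp90aa1, Hsp90ab1, Hspd1, Hspe1 and Hsf1. A gene was followed where a probe set of the array is listed with its symbol and no other. This gave 6 genes on 9 probe sets, of 22180 genes on 23521 such probe sets. Hspa8 had 4 probe sets and Hsph1, Dnajb1, Hsp90aa1, Hspd1 and Hspe1 had 1 each. The probe set of Dnaja1 is listed with a microRNA gene as well, and no single-symbol probe set was listed for Hsp90ab1 and Hsf1, so these 3 genes were not analysed here.

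RNA of mouse spleen monocytes was hybridised to 7 Affymetrix Mouse Gene 2.0 ST arrays, each holding RNA of 1 mouse under 1 condition. HL7G, a monoclonal antiphospholipid antibody (400 ng/ml), was given to cells of mouse 1 and mouse 2. Cells of mouse 1 only received R848, which activates the endosomal receptor TLR7, at 2 µg/ml, the TLR9-activating oligonucleotide CpG B at 2.5 µM, or poly I:C, a synthetic double-stranded RNA sensed by TLR3, at 1 µg/ml. Unstimulated cells came from both mice. An IgG condition named in the protocol was not analysed here. Stimulation lasted 3 h, and all cells carried wild-type EPCR. The sources used here do not give the strain, the age, the way monocytes were isolated or the culture time of unstimulated cells.

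The values are log2 expression levels, so a difference of 1 is a 2-fold change. The median of each array (41345 probe sets) was 4.40 to 4.54. The unstimulated arrays stood apart. The actin gene Actb had levels of 9.34 and 8.31 with HL7G in mouse 1 and mouse 2 and 7.77 to 8.49 with the agonists, against 5.02 and 6.81 in the unstimulated samples. Gapdh, a glycolytic enzyme, was lower with HL7G (-1.03 ± 0.25 SE, adjusted p = 0.0318). Of 10 monocyte markers 5 reached the level of 5 needed for testing. Among them Lyz2, the lysozyme of myeloid cells, read 6.20 and 7.02 with HL7G, against 4.53 and 5.11 unstimulated. Cx3cr1, another of the 5, went the other way, with 5.64 and 5.26 with HL7G against 6.05 and 6.50 unstimulated. Of the 5 tested, 4 had an HL7G difference above 0, as did 53% of all genes tested. Ly6c2 and Ccr2, found on classical monocytes, did not exceed 4.38 and 4.09. The mean level of the 10 was 5.08 to 5.09 with HL7G and 4.89 to 5.005 with the agonists, against 4.78 to 5.03 unstimulated. The mean level of 7 B cell markers was 6.43 to 6.55 with HL7G and 5.68 to 6.14 with the agonists, against 4.99 to 5.21 unstimulated, and that of 7 T cell markers was 5.98 to 6.04 and 5.33 to 5.42, against 4.97 to 5.15. The part of these shifts in the chaperone differences was not tested.

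All 6 chaperone genes read higher on each of the 5 stimulated arrays than on either unstimulated array, and 2 of them, Hspa8 and Hspe1, rose with HL7G in the test, Hspa8 on 1 of its 4 probe sets. The HL7G differences ranged from 0.63 for Dnajb1 to 2.32 for Hspa8, with a median of 1.09 against 0.06 over all 11127 genes tested. Of all genes 16.3% were called higher with HL7G and 1.89% lower, and 27.4% had the 5 stimulated arrays above both unstimulated ones. Brighter genes rose more: with only the 1337 genes of a mean level of at least 6, the median was 0.86. Of these 1337 genes 31.2% were called higher, and Hspa8 was the only chaperone gene among them. Calls were made at an adjusted p under 0.05 from limma. The filter on low levels bears on these counts: Hsph1, Hspd1, Hsp90aa1 and Dnajb1 reached a level of 5 through stimulated arrays only, so these 4 entered the test because they were high there. The median over all genes shifted to -0.07 with median centring, to -0.08 with loess and to -0.12 with quantile normalization of the tested genes, and the differences of all 6 genes with HL7G stayed above 0 there. Of all genes 53% had an HL7G difference above 0, 40.5% had both HL7G arrays above both unstimulated ones, and 16.8% were at least 1 log2 unit higher, as were 3 of the 6 chaperone genes.

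**Figure D1:**
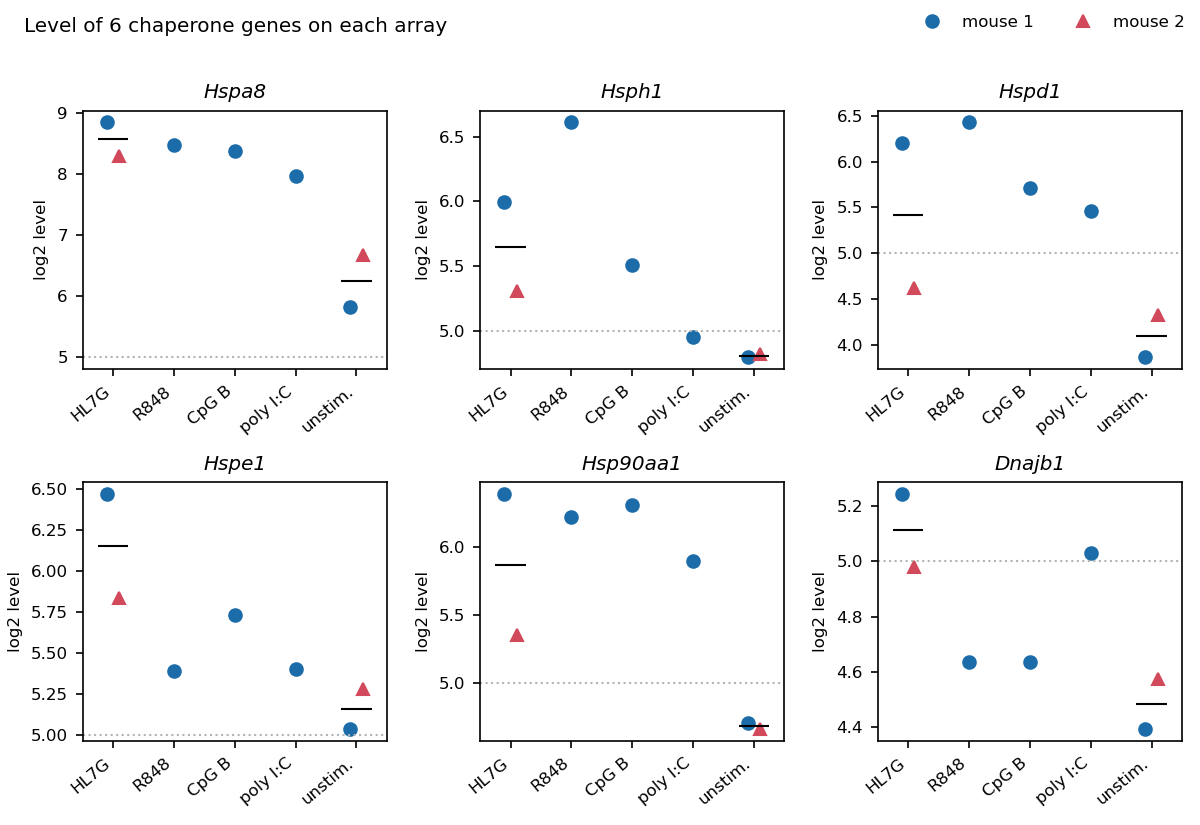
Level (log2) of 6 chaperone genes on each array, by treatment (circles, mouse 1; triangles, mouse 2; black lines, means of the groups with 2 arrays; dotted line, the level of 5 needed for testing; the vertical axes differ and do not start at 0). The unstimulated arrays are the lowest in every panel, and the HL7G array of mouse 2 lies under that of mouse 1 in each, as it does for 51% of all genes.

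Hspa8 encodes HSC70, the HSP70 that cells make without stress. Its probe set 17516365, the brightest on average and so the one used, read 8.85 and 8.30 in the HL7G samples of mouse 1 and mouse 2, 8.49 with R848, 8.38 with CpG B and 7.97 with poly I:C, against 5.82 and 6.68 in the unstimulated samples. The lowest stimulated array, poly I:C, stood 1.29 above the higher unstimulated one. This probe set was the brightest through its stimulated arrays: unstimulated it read below 17434475 in both mice, so the choice of probe set depended in part on the change. Hspa8 rose 5.01-fold with HL7G (log2 difference 2.32 ± 0.34 SE, n = 2 against 2, adjusted p = 0.0124). The difference became 0.86 after loess on the tested genes (adjusted p = 0.0338), and the call was lost when the unstimulated array of mouse 1 was left out (1.89, adjusted p = 0.0878).

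The other 3 Hspa8 probe sets did not follow the brightest. Probe set 17434475 read 7.44 and 6.88 in the HL7G samples, 7.19 with R848, 7.24 with CpG B and 7.07 with poly I:C, against 7.14 and 7.13 unstimulated. It was flat within the spread of the HL7G pair, with an HL7G difference of 0.024 ± 0.26 (adjusted p = 0.950 in a fit of single probe sets). Probe sets 17548379 and 17548744 were high only on the HL7G array of mouse 1, at 7.24 and 7.21, and read 6.26 to 6.60 and 6.29 to 6.59 on the other stimulated arrays, against 6.24 and 6.28, and 6.23 and 6.29, on the unstimulated ones. Their HL7G differences were 0.59 ± 0.29 and 0.57 ± 0.29 (adjusted p = 0.188 and 0.204). With the mean of the 4 probe sets Hspa8 had 0.88 and was not called (adjusted p = 0.0687). When the probe set brightest on the unstimulated arrays stood for each gene, Hspa8 was read from 17434475 and had 0.024 (adjusted p = 0.950). The Hspa8 call therefore rests on 17516365.

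The sources used here do not give the position of a probe set, so the genes of neighbouring probe set numbers were looked up. Hspa8 lies on mouse chromosome 9. Of the 20 named probe sets nearest in number to 17516365, the brightest, 20 belong to genes of chromosome 9. For the flat probe set 17434475, 19 of 20 belong to genes of chromosome 5. Neighbours of 17548379 were most often on chromosome 4 (10 of 20) and those of 17548744 on chromosome 9 (7 of 20). RefSeq names 0 pseudogenes after Hspa8, but only names that begin with the gene symbol were counted, so copies under other names would be missed. Whether those 3 probe sets read Hspa8 transcripts was not tested.

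**Figure D2:**
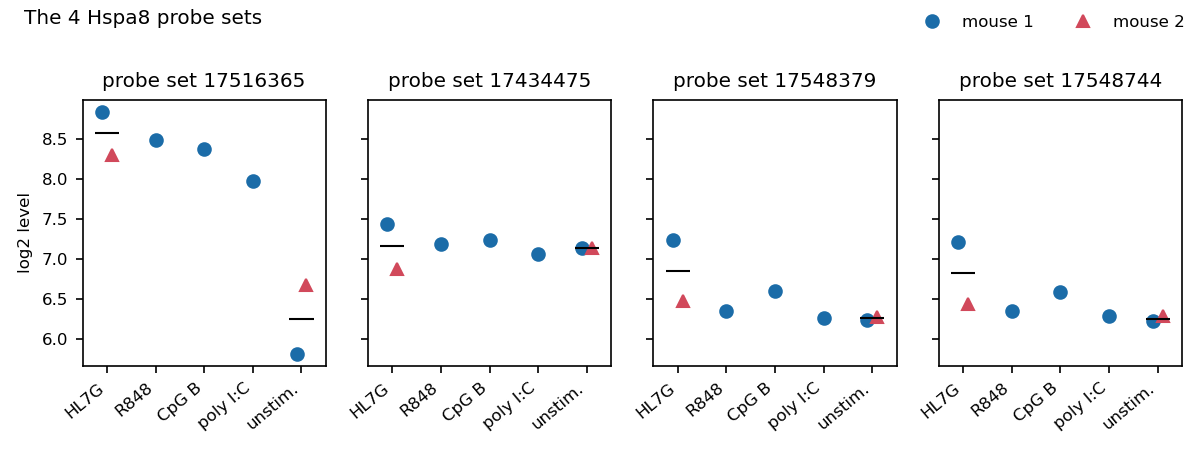
Level (log2) of the 4 Hspa8 probe sets on each array (circles, mouse 1; triangles, mouse 2; black lines, means of groups with 2 arrays; shared vertical axis that does not start at 0). The leftmost probe set is 2.32 higher with HL7G than unstimulated, whereas the next one differs by 0.024.

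Hsph1 encodes HSP110, a nucleotide exchange factor of HSP70. It read 5.996 and 5.30 in the HL7G samples, 6.61 with R848, 5.51 with CpG B and 4.95 with poly I:C, against 4.79 and 4.82 unstimulated. R848 gave the highest level, and poly I:C stood 0.13 above the higher unstimulated array. The HL7G difference was 0.84 ± 0.28 and was not called (adjusted p = 0.0774), but it was with a variance trend (adjusted p = 0.0476). The level after HL7G in mouse 2 lay between those with CpG B and poly I:C.

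Dnajb1 encodes HSP40, a J-domain partner that brings clients to HSP70. It read 5.24 and 4.98 in the HL7G samples, 4.64 with R848, 4.64 with CpG B and 5.03 with poly I:C, against 4.39 and 4.57 unstimulated. Unlike Hsph1, it was lower with R848 and CpG B than with poly I:C, and the R848 array stood 0.062 above the higher unstimulated array. The HL7G difference of 0.63 ± 0.22 was not called (adjusted p = 0.0939). The gene was dim throughout, with 5 of the 7 arrays below 5.

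Hsp90aa1 encodes the stress-inducible cytosolic HSP90. It read 6.38 and 5.35 in the HL7G samples, 6.21 with R848, 6.30 with CpG B and 5.90 with poly I:C, against 4.70 and 4.66 unstimulated. The mouse 1 arrays with HL7G, R848 and CpG B were close together, and the HL7G array of mouse 2 was the lowest of the stimulated ones. The HL7G difference was 1.18 ± 0.35 and just missed the threshold (adjusted p = 0.0563). It was called when the mouse entered as a block (adjusted p = 0.0409).

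Hspd1 encodes HSP60, the barrel of the mitochondrial chaperonin, and Hspe1 encodes HSP10, its lid. The genes lie head to head on mouse chromosome 1 and are transcribed in opposite directions. In RefSeq (GRCm38.p6) Hspe1 starts at 55088148 on the plus strand. Hspd1, on the minus strand, has an annotated start at 55087932, with 215 bases between it and the Hspe1 start, and another at 55088243, which lies 95 bases inside Hspe1, so the annotated genes overlap. Heat shock factor binds heat shock elements, inverted repeats of GAA and TTC units. A run of 3 units with 2 bases between them (GAA, NN, TTC, NN, GAA, on either strand) occurred in the 250 bases before the start in 0.466% of 32851 promoter windows of RefSeq. Of 10 windows of 5 of the 9 chaperone genes, 2 held it, those of Hspe1 and of the Hspd1 start at 55087932, which share 285 of their 300 bases and so hold the same site. The shorter element of 2 units (GAANNTTC or TTCNNGAA, which also lie within the longer run) occurred in 12.8% of all windows and in 5 of the 10 windows. These belong to 4 of the 5 genes and count the shared site of Hspe1 and Hspd1 for both. The Hsph1 match is likewise counted in overlapping windows of different annotated starts. There was no match before either start of Dnajb1. No window was used for Hspa8, Hsp90aa1, Hsp90ab1 and Hsf1. The 150 bases before the starts of Hspe1 (chr1:55087998-55088147, plus strand) and Hsph1 (chr5:149636337-149636486, minus strand) are shown to compare the shared site of the chaperonin pair with the single 2-unit match of Hsph1. Capitals mark matches to a 3-unit element in Hspe1, where overlapping matches join to 18 bases between 89 and 72 bases before the start, and to a 2-unit element in Hsph1.
Hspe1: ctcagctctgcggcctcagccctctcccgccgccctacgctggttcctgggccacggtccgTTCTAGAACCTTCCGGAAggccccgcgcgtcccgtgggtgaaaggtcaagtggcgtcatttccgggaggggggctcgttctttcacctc
Hsph1: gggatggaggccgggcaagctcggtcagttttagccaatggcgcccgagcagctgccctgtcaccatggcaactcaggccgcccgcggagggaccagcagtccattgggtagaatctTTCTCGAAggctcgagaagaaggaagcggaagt
A match is a run of letters, and binding of a factor was not measured.

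The chaperonin genes differed in which stimulus gave the highest level. Hspd1 read 6.21 and 4.62 in the HL7G samples, 6.43 with R848, 5.71 with CpG B and 5.46 with poly I:C, against 3.87 and 4.33 unstimulated. R848 and the HL7G array of mouse 1 were highest, and the HL7G array of mouse 2 was 0.29 above the unstimulated one of the same mouse. Hspe1 read 6.47 and 5.84 in the HL7G samples, 5.39 with R848, 5.73 with CpG B and 5.40 with poly I:C, against 5.04 and 5.28 unstimulated. Both HL7G arrays were above all 3 agonist arrays, and R848 was the lowest of the stimulated arrays. Hspe1 rose 1.99-fold with HL7G (0.99 ± 0.28 SE, n = 2 against 2, adjusted p = 0.0493).

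The Hspe1 call was narrow, and it was not made without the filter on low levels. It was lost when the mouse entered as a block (adjusted p = 0.0647), under the 3 rescalings and without the unstimulated array of mouse 1 (0.87, adjusted p = 0.265), that of mouse 2 (1.11, adjusted p = 0.126) or the HL7G array of mouse 1 (0.68, adjusted p = 0.137). Hspd1 had a larger HL7G difference with a wider error, 1.32 ± 0.49, and was not called (adjusted p = 0.103). It had 2.11 without the HL7G array of mouse 2 and was then called (adjusted p = 0.00194), in a fit whose spread comes from the unstimulated pair alone, and 0.52 without that of mouse 1 (adjusted p = 0.282). RefSeq also names 5 Hspd1 and 6 Hspe1 pseudogenes, and whether probes read them as well was not tested. The difference between the patterns of the pair was not tested.

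The HL7G differences were larger in mouse 1 than in mouse 2 for all 6 genes, against 51.1% of all genes. The median over the 6 was 1.56 in mouse 1 and 0.52 in mouse 2, and over all genes it was 0.022 and 0.12, with an SD of 1.05 in mouse 1 and 0.60 in mouse 2. Hspd1 showed the widest gap, with 2.34 in mouse 1 and 0.29 in mouse 2. Hspa8 had 3.03 and 1.62, Hsp90aa1 had 1.68 and 0.69, and Hspe1 had 1.43 and 0.55. Hsph1 (1.20 and 0.48) and Dnajb1 (0.85 and 0.41) had smaller gaps. For 5 of the 6 genes the HL7G arrays of the mice were farther apart than the unstimulated ones, and for Hspa8 the unstimulated ones were. With 1 array per mouse and condition, the difference between the mice could not be tested. Leaving out 1 array left a group with 1 sample, assumed to vary like the remaining pair, and 1 residual degree of freedom. Without the HL7G array of mouse 2, 5 of 6 genes were called higher, where 25% of all genes were, and without that of mouse 1 only Hspa8 was (2.05, adjusted p = 0.0171), where 10.9% of all genes were. Without the unstimulated array of mouse 1 none was, but 2 of all genes (0.018%) were, and without that of mouse 2 only Hspa8 was (2.76, adjusted p = 0.0113), where 7.34% of all genes were.

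**Figure D3:**
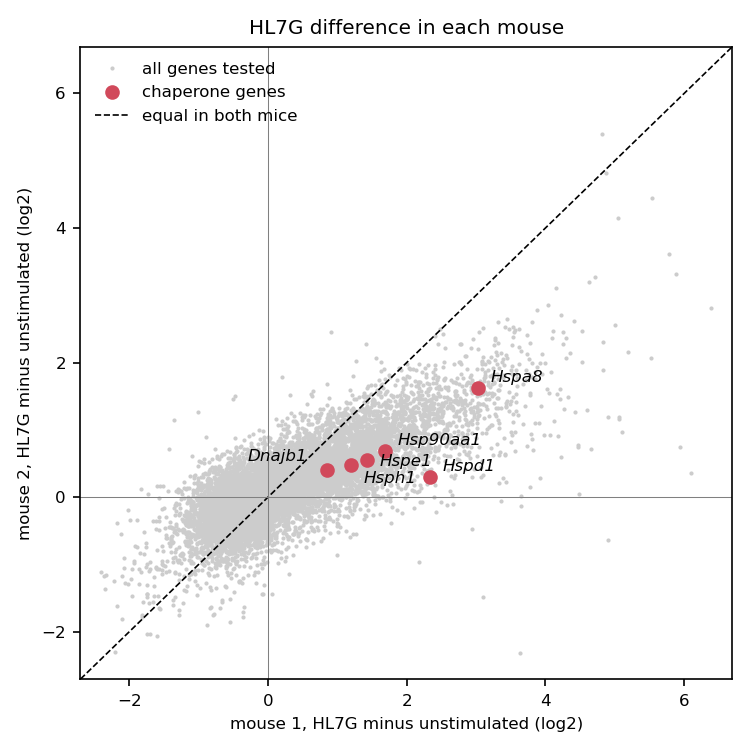
HL7G minus unstimulated (log2 difference) of mouse 1 on the horizontal and mouse 2 on the vertical axis, for all 11127 genes tested (grey) and 6 chaperone genes (red), with a dashed line where both mice are equal. The 6 chaperone genes lie above 0 in both mice and below the dashed line.

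The agonist comparisons asked how the chaperone genes responded to endosomal Toll-like receptor ligands, with 1 array each, whose spread was taken to equal that of the replicated groups. These comparisons and that of HL7G share the unstimulated arrays. In limma none of the 6 genes and none of 11127 genes was called with R848, CpG B or poly I:C (0% each), with 2551, 1370 and 1054 genes at an unadjusted p under 0.05. The differences of the 6 genes were above 0 in all 3, as were 56.6% of all genes with R848, 53% with CpG B and 52% with poly I:C. At least 1 log2 unit higher were 4 of the 6 with R848 (12.1% of all genes), 3 with CpG B (8.06%) and 3 with poly I:C (6.23%).

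With R848 the largest differences were those of Hspd1 (2.33 ± 0.60, adjusted p = 0.102) and Hspa8 (2.24 ± 0.42, adjusted p = 0.0855), followed by Hsph1 (1.80 ± 0.34, adjusted p = 0.0855) and Hsp90aa1 (1.53 ± 0.42, adjusted p = 0.111). Hspe1 and Dnajb1 had 0.23 ± 0.34 and 0.15 ± 0.27, with 95% intervals of -0.57 to 1.03 and -0.497 to 0.80. Hspa8, Hspd1 and Hsph1 were called when the tested genes were quantile normalized (adjusted p = 0.0468, 0.0486 and 0.0271), where 3.09% of all genes were called higher. Without either HL7G array, where the spread comes from the unstimulated pair alone, Hspa8, Hsph1, Hspd1 and Hsp90aa1 were called, as were 11.6% of all genes higher.

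With CpG B Hspa8 had 2.13 ± 0.42, Hsp90aa1 1.62 ± 0.42 and Hspd1 1.61 ± 0.60, and Hsph1, Hspe1 and Dnajb1 had 0.70, 0.57 and 0.15. With poly I:C the largest differences were those of Hspa8 with 1.73 ± 0.42, Hspd1 with 1.36 ± 0.60 and Hsp90aa1 with 1.21 ± 0.42. There Dnajb1 had 0.55 ± 0.27, and Hspe1 and Hsph1 had 0.24 and 0.15. Adjusted p lay between 0.208 and 0.865 for CpG B and between 0.430 and 0.929 for poly I:C. The Hspa8 values with the agonists are those of probe set 17516365. For 17434475, 17548379 and 17548744 the differences were 0.052 to 0.099 with R848 and 0.10 to 0.34 with CpG B. With poly I:C they were -0.068 to 0.029. Within mouse 1 alone Hspa8 stood 2.67, 2.56 and 2.16 above the unstimulated array with R848, CpG B and poly I:C, and Hspd1 stood 2.56, 1.84 and 1.59 above it.

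**Figure D4:**
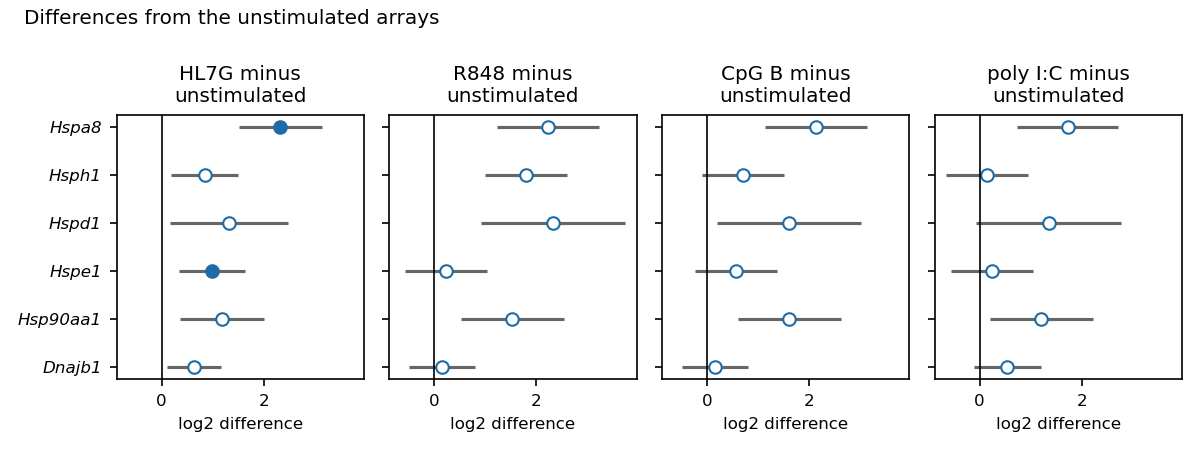
Log2 difference from the unstimulated arrays for 6 genes and 4 stimuli, with 95% confidence intervals from limma (filled points, adjusted p under 0.05; open points, not called). Filled points are Hspa8 and Hspe1 with HL7G, and Hspe1 and Dnajb1 lie closest to 0 with R848.

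The direct comparison of HL7G with the mean of the 3 agonists does not use the unstimulated levels, but its errors rest in part on the spread of the unstimulated pair. It sets HL7G arrays of mouse 1 and mouse 2 against agonist arrays of mouse 1 only, so a difference between the mice enters it. None of the 6 genes and none of all genes was called (0%), with 1203 genes at an unadjusted p under 0.05. Above 0 were 3 of the 6 genes and 56% of all genes, and 1.2% of all genes but none of the 6 were at least 1 log2 unit higher. The median of the 6 was 0.13 against 0.047 over all genes. Hspe1 had the largest difference, a mean of 6.15 with HL7G and 5.51 with the agonists (0.64 ± 0.25, 95% interval 0.048 to 1.24, adjusted p = 0.438). Dnajb1 had 0.34 (-0.14 to 0.83) and Hspa8 0.29 (-0.45 to 1.04). Hspd1, Hsp90aa1 and Hsph1 had -0.45 (-1.51 to 0.61), -0.27 (-1.02 to 0.48) and -0.040 (-0.64 to 0.56). For those last 3 the HL7G arrays fell on either side of the agonist mean: the mouse 1 array differed from it by 0.34, 0.25 and 0.31, and the mouse 2 array by -1.24, -0.79 and -0.39. For Hspe1, Dnajb1 and Hspa8 the mouse 1 array differed from it by 0.96, 0.48 and 0.57, and the mouse 2 array by 0.33, 0.21 and 0.020.

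The mean of R848 and CpG B was also set against poly I:C, each array from mouse 1. None of the 6 genes and none of all genes was called (0%), with 187 at an unadjusted p under 0.05. Above 0 were 5 of the 6 genes and 57.5% of all genes, and 1 of the 6, Hsph1, was at least 1 log2 unit higher (0.216% of all genes). Hsph1 had a mean of 6.06 with R848 and CpG B and 4.95 with poly I:C (1.11 ± 0.34, 95% interval 0.299 to 1.91, adjusted p = 1.00). Hspd1 had 0.61 (-0.81 to 2.03), Hspa8 0.46 (-0.54 to 1.45), Hsp90aa1 0.36 (-0.64 to 1.37) and Hspe1 0.16 (-0.64 to 0.96). Dnajb1 went the other way, with -0.39 (-1.04 to 0.26).

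Partners of the 6 chaperones were read from lists of related genes, whose counts stand against 16.3% of all genes called higher and 1.89% lower with HL7G. With only genes of a mean level of at least 6, 31.2% were called higher. Many list genes passed the filter on low levels through stimulated arrays only, as 2828 of all 11127 genes did, so each count is also given without the filter, where 8.32% of 22180 genes were called higher. Of 10 tested HSP90 co-chaperones 5 were called higher with HL7G and none lower (median 1.20), where 7 of the 10 had passed through stimulated arrays only. Without the filter 6 of 12 were called higher. Cdc37, which loads kinases onto HSP90, read 7.36 and 6.81 in the HL7G samples, against 5.07 and 5.52 unstimulated (1.79 ± 0.28, adjusted p = 0.0132). Stip1, which links HSP70 to HSP90, and Ahsa1, which stimulates the HSP90 ATPase, had 1.23 ± 0.40 (adjusted p = 0.0753) and 0.70 ± 0.36 (adjusted p = 0.201). Of 11 tested cytosolic J-domain proteins 4 were called higher and none lower (median 1.00), where 2 of the 11 had passed through stimulated arrays only, and without the filter 4 of 15 were called higher. Dnajc7, which binds HSP70 and HSP90, rose by 2.30 ± 0.40 and Dnaja2 by 2.08 ± 0.49 (adjusted p = 0.0149 and 0.0301), while Dnajb6 and Dnaja4 had 0.15 ± 0.24 and -0.29 ± 0.26.

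The cytosolic chaperonin TRiC folds actin and tubulin, and prefoldin hands them over to it. Of 13 tested genes 8 were called higher with HL7G and none lower (16.3% and 1.89% of all genes), with a median of 1.83. Of the 13, 6 had passed the filter through stimulated arrays only, and without it the count was again 8 of 13. Cct2 read 8.70 and 6.95 in the HL7G samples, 8.07 with R848, 7.69 with CpG B and 7.05 with poly I:C, against 5.10 and 5.73 unstimulated (2.41 ± 0.54, adjusted p = 0.0270). Cct3 rose by 1.83 ± 0.37 (adjusted p = 0.0207). Cct3, Hspa4, Dnaja2, Bag1, Trap1 and Hsbp1 were under 5 on both unstimulated arrays and so among the genes tested through stimulated arrays only. The same held for Stip1, Ahsa1, Dnaja3, Hspa14 and Cryab, which were not called. Tcp1 had 2.63 ± 0.93 (adjusted p = 0.0928) on a probe set that read 3.92 and 7.29 in the unstimulated samples. In mouse 1 the median of the list was 2.43 and in mouse 2 it was 1.03, and 12 of the 13 genes had the larger difference in mouse 1, as did all 10 HSP90 co-chaperones.

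Mitochondrial chaperones and proteases had 6 of 11 tested genes called higher and none lower (median 1.04), where 7 of the 11 had passed through stimulated arrays only. Without the filter 7 of 14 were called higher. Hspa9, the mitochondrial HSP70 that pulls proteins into the matrix, read 8.37 and 6.92 in the HL7G samples, 8.03 with R848, 7.97 with CpG B and 7.54 with poly I:C, against 4.89 and 5.64 unstimulated (2.38 ± 0.48, adjusted p = 0.0210). It resembled Hspd1 in that the HL7G array of mouse 2 was the lowest stimulated one. Trap1, the mitochondrial HSP90, rose by 1.14 ± 0.26 (adjusted p = 0.0274), and Dnaja3, a mitochondrial J-domain protein, had 1.04 ± 0.37 (adjusted p = 0.0940). Chaperones of the endoplasmic reticulum had 7 of 11 called higher and none lower (median 0.90), and 7 of 12 higher without the filter, where 5 of the 11 had passed through stimulated arrays only. The list was led by the lectin chaperone Canx (2.50 ± 0.38, adjusted p = 0.0127), with Hsp90b1 at 2.25 ± 0.32 (adjusted p = 0.0120), Hyou1 at 0.90 ± 0.24 (adjusted p = 0.0458) and Hspa5, the HSP70 of that compartment, at 0.86 ± 0.37 (adjusted p = 0.141).

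Hspa1a and Hspa1b, near-identical copies of the inducible HSP70 whose probes may be shared, stayed under the level of 5. Hspa1a read 3.79 and 4.04 in the HL7G samples and 3.82 to 4.36 with the agonists, against 4.60 and 4.90 unstimulated. Hspa1b read 3.73 and 3.65 with HL7G and 3.52 to 4.35 with the agonists, against 4.20 and 4.86 unstimulated. When all 22180 genes were tested without the filter, their HL7G differences were -0.84 ± 0.21 (adjusted p = 0.0477) and -0.84 ± 0.25 (adjusted p = 0.0776). These levels lie around the array medians. Small heat shock proteins had 0 of 4 tested genes called in either direction in limma (18.2% of all genes were), and 4 genes are too few to set apart from that share. The median was -0.20, with Hspb1 at -0.28 ± 0.30, Cryab at -0.12 ± 0.21 and Hspb6 at -0.61 ± 0.25. Of 7 tested exchange factors and ubiquitin partners of HSP70 only Bag1 was called (1.52 ± 0.35, adjusted p = 0.0289), and the heat-inducible Bag3 had -0.13 ± 0.23 and Hspbp1 0.10 ± 0.21. Among 3 tested heat shock factors and regulators Hsbp1, which binds HSF1 and restrains it, rose by 1.22 ± 0.21 (adjusted p = 0.0158), while Hsf4 and Serpinh1, a collagen chaperone, had -0.20 ± 0.26 and -0.32 ± 0.24. Of 3 tested HSP70 and HSP110 relatives Hspa4, another HSP110, rose by 2.11 ± 0.33 (adjusted p = 0.0132), and Hspa14 and Hspa2 had 0.35 ± 0.23 and -0.098 ± 0.23. In these 4 lists, in the order given, 1 of 4, 1 of 7, 1 of 3 and 2 of 3 had passed through stimulated arrays only. Without the filter 0 of 7, 1 of 7, 1 of 6 and 1 of 10 were called higher. Of those 10, 1 was called lower, Hspa1a, as were 336 of 22180 genes.

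**Figure D5:**
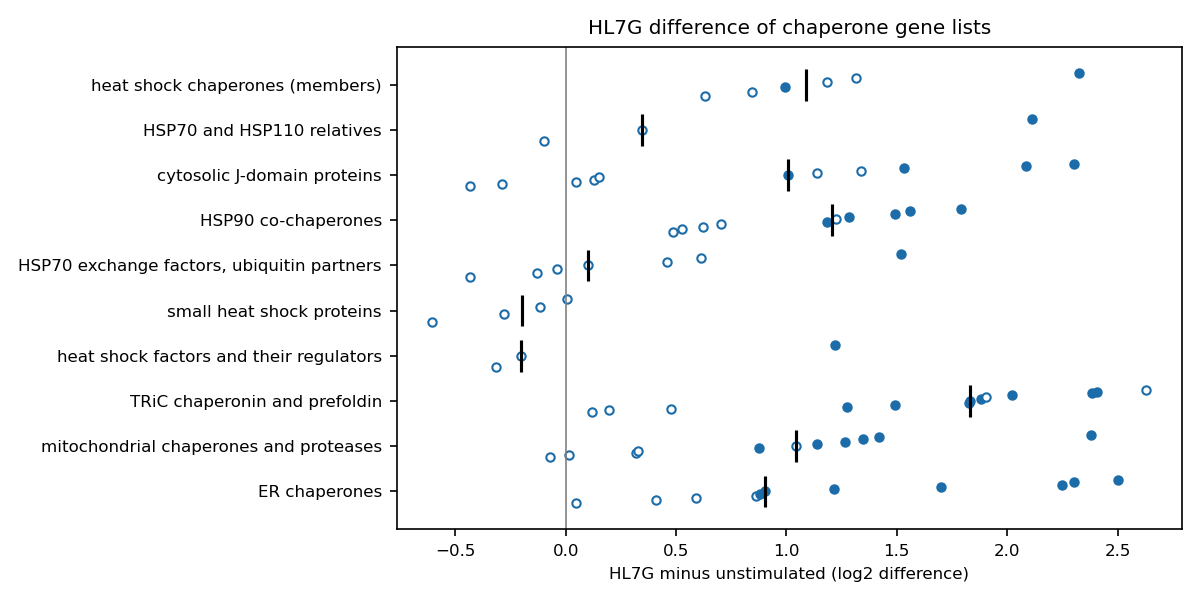
HL7G minus unstimulated (log2 difference) of each tested gene, 1 row per list, with the 6 chaperone genes in the top row (filled points, adjusted p under 0.05; open points, not called; black bars, list medians; heights within a row only separate the points). The medians of TRiC with prefoldin and of the HSP90 co-chaperones are 1.83 and 1.20, and that of the small heat shock proteins is -0.20.

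Of 8 tested abundant transcripts, some often used for scaling, 5 were called higher with HL7G and 1 lower (16.3% and 1.89% of all genes), with a median of 2.73. Without the filter on low levels 5 of 9 were called higher and 1 lower. Ptprc, the leukocyte antigen CD45, rose by 3.44 ± 0.43 (adjusted p = 0.0120), B2m by 3.27 ± 0.62 (adjusted p = 0.0187) and Actb by 2.91 ± 0.59 (adjusted p = 0.0211), while Eef1a1, a translation elongation factor, had 2.55 ± 0.80 (adjusted p = 0.0680). The list had a median of 4.11 in mouse 1 and 1.42 in mouse 2, in the same order of mice as the chaperone genes.

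The 5 genes outside the 6 chaperones whose levels over the 7 arrays followed the mean of the 6 most closely were Trim28, Mif4gd, Gpat4, Rbm15b and Morf4l2. After each gene was centred on its own mean, their mean absolute difference from the chaperone profile was 0.045 to 0.074 log2 units. Among the chaperones themselves it was 0.18 for Hsp90aa1 and 0.30 to 0.42 for the other 5. The 5 genes were picked as the closest of all, so their smaller distance follows from that choice. That profile stood at 0.78 and -0.012 in the HL7G samples, 0.55 with R848, 0.30 with CpG B and 0.041 with poly I:C, against -0.98 and -0.69 unstimulated.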

How the data were processed

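The log2 levels per probe set were used as the authors deposited them. The submitters' processing notes name RMA and, as programs, Transcriptome Analysis Console and Affymetrix Expression Console, without versions. Probe sets were named from GEO's platform annotation: 1814 had several symbols and 16010 had none listed. Probe sets that reached a log2 level of 5 on 1 or more arrays were kept, and of several probe sets of a gene the brightest on average was used. All 7 arrays in 5 groups entered 1 fit in limma 3.58.1 (R 4.3.3) with moderated variances (2 residual and 4.94 prior degrees of freedom), 2-sided tests and Benjamini-Hochberg adjustment over 11127 genes. Errors are standard errors of that fit. They rest on 2 mice, and precision is limited by the number of arrays. The limma script was tested on simulated data.

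Arrays with the same mouse number come from the same animal. The main fit had no term for the mouse, so its p-values treat the arrays of a mouse as independent. The mouse differences of the unstimulated and HL7G arrays had r = -0.146 across genes. Other settings were a mouse block, a variance trend, other filters, 3 rescalings, the mean of probe sets, the probe set brightest on the unstimulated arrays (added after seeing the data) and leaving out single arrays. The members and gene lists were chosen with earlier results of these data known. Named in the text were the measured members, the first 3 tested genes of each list with the called gene of largest HL7G difference, and the 5 genes of most similar profile. Hspa1a, Hspa1b, Gapdh and Cx3cr1 were added after their values were seen. The monocyte markers Lyz2, Ly6c2 and Ccr2 were named outside these rules.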

Additional observations from a re-analysis of the deposited data

How the results depend on the processing

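With 2 residual degrees of freedom, single arrays decide many calls. For HL7G against unstimulated, 2024 genes were called, 1814 higher and 210 lower. The split was 1484 and 410 with median centring, 1373 and 625 with loess and 1398 and 1029 with quantile normalization. Requiring a mean level of 6 left 1337 genes to test, of which 457 were called, and 1 chaperone gene, which was called. Leaving out 1 array gave 2 to 3298 genes, and 0 to 5 of the 6 chaperone genes in place of 2. The other settings gave 4 chaperone genes with a variance trend and 1 each without the filter, with median centring, with loess, with the mean of probe sets and, chosen after seeing the data, with the probe set brightest on the unstimulated arrays. Hspe1 was called with the trend and with both other uses of probe sets, and Hsp90aa1 with the mouse block, the trend and quantile normalization. The block kept the number of called chaperone genes at 2 but exchanged Hspe1 for Hsp90aa1.

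For R848 the number of genes called was 5 with the block, 95 with the trend, 51 with loess, 576 with quantile normalization and 0 to 1542 without 1 array. Of these calls 80% were higher with the block, 71.6% with the trend and 59.7% with quantile normalization. With loess 17.6% were higher, so there alone most of the calls were lower. That of chaperone genes was 1 with the trend, 3 with quantile normalization and 0 to 4 without 1 array. For CpG B it was 2 genes with the trend, 2 with loess, 120 with quantile normalization and 0 to 528 without 1 array, and 0 to 3 chaperone genes without 1 array. For poly I:C it was 2 genes with the block, 2 with the trend, 11 with quantile normalization and 0 to 198 without 1 array. The comparisons between stimuli had no call under any setting.

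Uncalled differences changed sign for Dnajb1 with CpG B (-0.018, quantile normalization), Hsph1 with poly I:C (-0.021, mouse block) and, for HL7G against the agonists, Hspa8 (-0.053, quantile normalization), Hsph1 (0.13 with the block, 0.31 without HL7G replicate 2), Hspd1 (0.34) and Hsp90aa1 (0.25), the last 2 also without HL7G replicate 2. Without HL7G replicate 1 these 3 genes had -0.39, -1.24 and -0.79. Read from the probe set brightest unstimulated, Hspa8 had -0.068 with poly I:C and -0.0056 for HL7G against the agonists. The cause of these changes was not tested.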
